A study of Mus musculus with 6 samples.

Results

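*Slc13a3*, *Lhpp* and *Npr2* were 3 genes whose liver mRNA was lower in every *Alb-Cre;Tcf7l2 f/f* mouse than in any wild-type littermate. They were picked by that fall, so their own knockout values are given here as a description with no *p*. Their relatives *Slc13a2*, *Slc13a5*, *Npr1* and *Npr3* were set beside them, which makes 7 genes of the 23282 in the deposited tables, and all 7 passed the filter on low counts that left 14076 genes for the test. Knockout livers came from 3 *Alb-Cre;Tcf7l2 f/f* mice (libraries labelled 7-2, 7-3 and 8-3) and wild-type livers from 3 *Tcf7l2 f/f* mice without Cre (libraries 7-2, 8-1 and 8-3), so both groups carry *Tcf7l2* alleles floxed at exon 5. All were C57BL/6 mice by their labels, C57BL/6N in the study's methods, of 12 weeks, fasted for 24 h and then refed normal chow for 24 h. The albumin promoter, a promoter of hepatocytes, drove Cre, whereas the RNA came from whole liver, so fewer cells of a type and less RNA per cell cannot be told apart.

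TCF7L2 is a DNA-binding partner of β-catenin in Wnt signalling, and in the liver Wnt ligands from the endothelium of the central vein maintain the gene programme of the hepatocytes around it. The SLC13 family moves di- and tricarboxylates into cells together with sodium: SLC13A3 takes up succinate, α-ketoglutarate, glutarate and *N*-acetylaspartate and is best known from kidney tubules and astrocytes, SLC13A2 takes up succinate and citrate in kidney and intestine, and SLC13A5 is the citrate transporter of hepatocytes. LHPP is a phosphatase of the haloacid dehalogenase (HAD) family that removes phosphate from histidine and lysine and splits pyrophosphate. Natriuretic peptide receptors sit in the cell membrane, where NPR1 (for atrial and brain natriuretic peptides) and NPR2 (for C-type natriuretic peptide) make cyclic GMP, while NPR3 lacks the cyclase and clears the peptides.

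The libraries held 60619938 to 133384586 counts. Genes whose symbols begin with *Mup*, the major urinary proteins, took 18.5% to 28.7% of the counts in knockout libraries and 31.7% to 54.3% in wild-type libraries, and library sizes were therefore scaled by TMM factors, after which log2 fold changes had a median of −0.017 over the tested genes. Values are given as CPM, the counts relative to the scaled library size. *Tcf7l2* itself (chromosome 19, 55741797 to 55933659 of GRCm38.p6) stood at 3.31, 2.74 and 3.33 CPM in knockout livers and 4.88, 6.13 and 6.85 CPM in wild-type livers. Its log2 fold change of −0.93 ± 0.19 (SE), at an adjusted *p* of 0.0856, missed the threshold of 0.05, and its counts cover the whole gene rather than exon 5. Of all tested genes, 53 (0.377%) were called lower and 10 (0.071%) higher at an adjusted *p* under 0.05. Before adjustment 6.76% were lower and 6.7% higher with *p* under 0.05, and DESeq2 called 1.78% lower and 1.48% higher of the 13513 genes to which it gave an adjusted *p*. In 1278 genes (9.08%) all 3 knockout values lay below all 3 wild-type values, and in 1437 (10.2%) they lay above.

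The promoters are shown because *Slc13a3* and *Npr2* were both lower in livers in which a TCF factor was targeted, and the usual DNA motif of these factors is CTTTGAT or its shorter form CTTTGA. RefSeq promoter entries (GRCm38.p6) were found for 6 of the 7 genes, without *Lhpp*. Both strands were searched from 250 bases before to 50 bases after the start. Neither CTTTGA nor CTTTGAT occurred in the promoter of any of these 6 genes, nor in that of *Oat*, whereas 16% and 3.73% of all 32851 promoters of the same length hold them. Their shared letters CTTTG, which lie inside both and were searched after the longer forms gave no match, occurred in *Slc13a3*, *Npr2*, *Slc13a5* and *Npr3* and are held by 53.9% of all promoters. The 250 bases before the start of *Slc13a3* (minus strand, chr2:165473198-165473447) and of *Npr2* (plus strand, chr4:43631685-43631934) follow, 5′ to 3′, with CTTTG in capitals. The start used for *Npr2* lies inside the interval given for the gene.
Slc13a3: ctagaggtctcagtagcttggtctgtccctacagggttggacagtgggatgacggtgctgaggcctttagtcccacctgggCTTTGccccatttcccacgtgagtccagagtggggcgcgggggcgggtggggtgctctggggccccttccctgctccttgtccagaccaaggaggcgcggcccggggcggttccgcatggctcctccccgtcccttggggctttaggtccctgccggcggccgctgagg
Npr2: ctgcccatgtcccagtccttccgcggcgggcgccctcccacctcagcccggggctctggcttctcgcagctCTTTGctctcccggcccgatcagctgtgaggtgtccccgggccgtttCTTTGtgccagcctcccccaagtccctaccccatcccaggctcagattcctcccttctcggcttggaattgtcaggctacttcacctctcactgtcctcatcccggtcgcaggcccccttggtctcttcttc
*Slc13a3* holds these letters 1 time, from position −169, and *Npr2* holds them 2 times, from −179 and −132.

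*Slc13a3* (NM_054055; chromosome 2, 165405295 to 165473197, minus strand) was all but undetected in knockout livers. It stood at 0.05, 0 and 0 CPM in knockout libraries 7-2, 7-3 and 8-3 (4, 0 and 0 counts), against 4.26, 5.16 and 6.66 CPM in wild-type libraries 7-2, 8-1 and 8-3 (283, 432 and 453 counts). The groups were far apart, and all 4 knockout counts came from library 7-2. The log2 fold change was −8.24 (SE 0.58), rank 4 from the lowest among the tested genes. Over the 3 libraries of each group the wild-type level was 330-fold that of the knockout, with a 95% interval for counting error of 129 to 1214. Without knockout library 7-2 both remaining knockout livers were at 0 counts, and the wild-type level was then at least 289-fold higher against a floor of 3 counts over those libraries. Of 11 kidney tubule markers, 9 fell below the filter. *Slc34a1*, *Slc22a6*, *Umod*, *Kap* and *Aqp2* are named because they were at 0 counts in all 6 libraries. Of the 2 that passed the filter, 1 log2 fold change lay above 0 and 1 below. The summed level of the list was 3.42 to 4.61 CPM in knockout and 3.40 to 6.30 CPM in wild-type livers. Whether kidney RNA had a part in the *Slc13a3* values was not tested.

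*Lhpp* (NM_029609; chromosome 7, 132610615 to 132706420, plus strand) was at 2.60% of its wild-type mean in knockout livers. It stood at 0.24, 1.01 and 0.20 CPM in knockout libraries 7-2, 7-3 and 8-3 (20, 77 and 17 counts), against 17.45, 17.38 and 20.89 CPM in wild-type libraries (1160, 1455 and 1421 counts). Every knockout liver was far below the wild-type range, and library 7-3 was the highest of the knockout group. The log2 fold change was −5.29 (SE 0.51, rank 9), and the wild-type level was 40.0-fold that of the knockout (counting interval 33.2 to 48.7).

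*Npr2* (NM_173788; chromosome 4, 43629015 to 43651437, plus strand) was lower but still clearly detected, unlike *Slc13a3*. It stood at 2.22, 1.58 and 2.50 CPM in knockout libraries (188, 120 and 215 counts), against 12.29, 11.67 and 7.83 CPM in wild-type libraries (817, 977 and 533 counts). The groups did not overlap, with wild-type library 8-3 the nearest to the knockout values. The knockout mean was 19.8% of the wild-type mean, with a log2 fold change of −2.33 (SE 0.24, rank 66), and the wild-type level was 5.03-fold that of the knockout (counting interval 4.57 to 5.54). Counting intervals, here and below, pool the counts of the 3 libraries of a group. They cover counting error only and leave out the spread between mice, and reads carry no molecular identifiers. The 95% intervals of the fitted log2 fold changes, which use that spread, are given as a description. They were −9.53 to −6.94 for *Slc13a3*, −6.43 to −4.15 for *Lhpp* and −2.87 to −1.80 for *Npr2*.

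**Figure D1:**
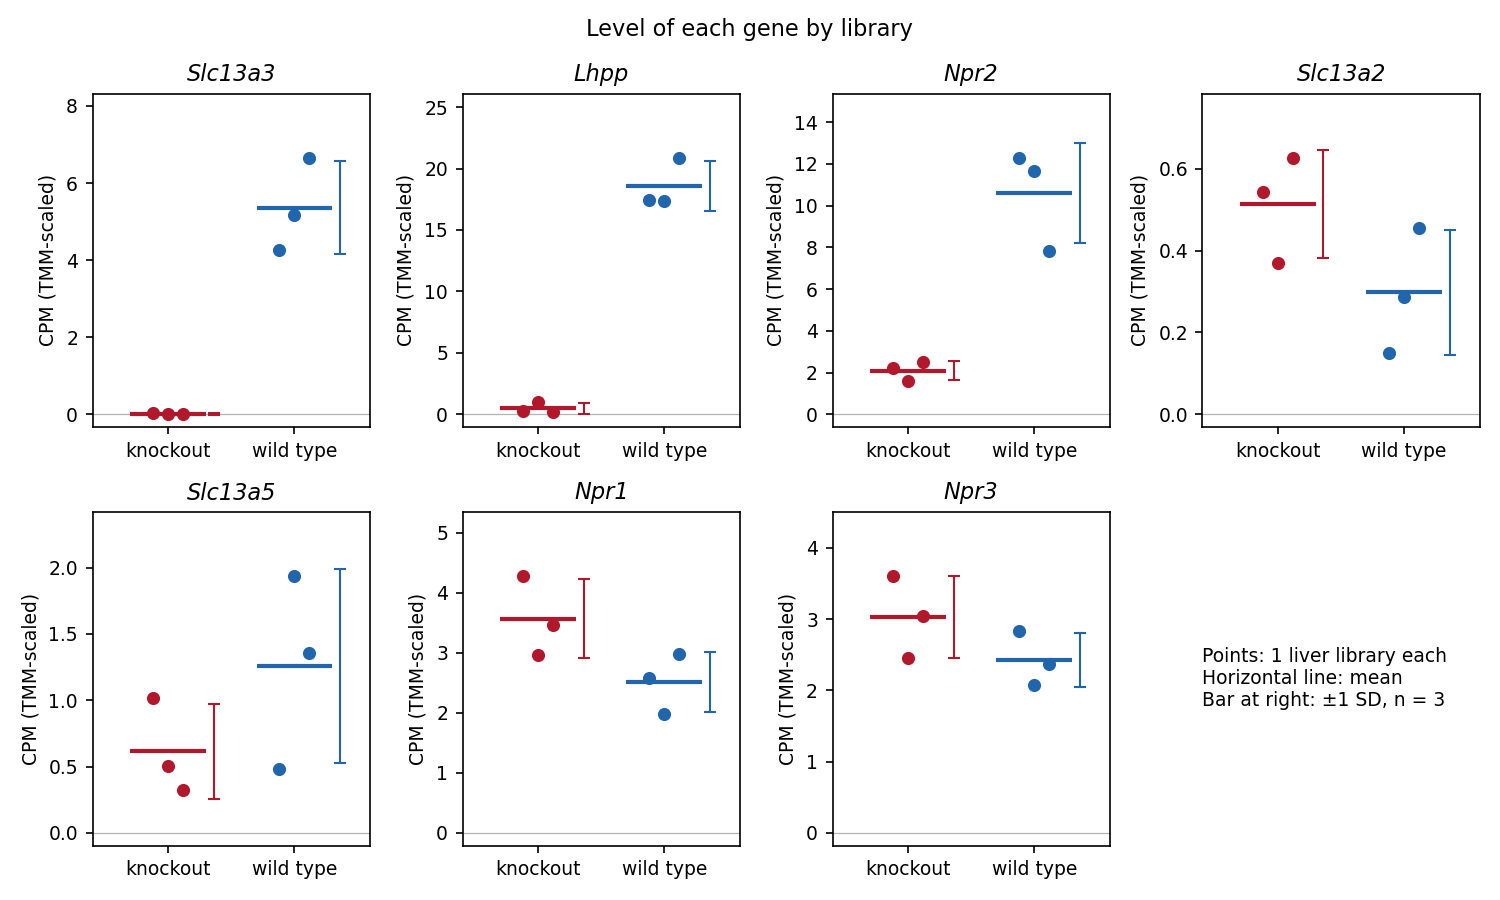
CPM of each of the 7 genes (vertical axis, each panel with its own scale) in knockout (red, left) and wild-type (blue, right) livers. Points are libraries, horizontal lines are means and the bars at the right are 1 SD (n=3 per group). *Slc13a3* (0 to 0.05 CPM in knockout, 4.26 to 6.66 CPM in wild type), *Lhpp* and *Npr2* have groups that do not overlap. These 3 were picked for their fall, while the groups of the 4 relatives overlap.

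The other SLC13 transporters did not pass the test in either direction. *Slc13a2* (NM_022411; chromosome 11, 78397276 to 78422281) stood at 0.54, 0.37 and 0.63 CPM in knockout libraries and 0.15, 0.29 and 0.46 CPM in wild-type libraries, on 128 counts in knockout and 65 in wild-type libraries. The groups overlapped, and the log2 fold change of 0.78 ± 0.47 (SE; 95% interval −0.26 to 1.83; adjusted *p*=0.490) covers both directions. *Slc13a5* (NM_001004148; chromosome 11, 72241990 to 72267295) stood at 1.02, 0.50 and 0.33 CPM in knockout libraries and 0.48, 1.94 and 1.35 CPM in wild-type libraries. Wild-type library 7-2 lay inside the knockout range, and the log2 fold change of −1.04 ± 0.54 (SE; interval −2.24 to 0.17; adjusted *p*=0.435) covers no change as well as a large fall. *Slc13a1* and *Slc13a4*, the sulphate transporters of the family, fell below the filter. *Slc13a1* had 2 counts in knockout and 3 in wild-type libraries, and *Slc13a4* had 6 in knockout and 29 in wild-type libraries.

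Of the natriuretic peptide receptors, *Npr2* was picked for its fall in every knockout liver, so its separate groups follow from that choice. *Npr1* and *Npr3* were taken as its relatives. *Npr1* (NM_008727; chromosome 3, 90450591 to 90465928) stood at 4.27, 2.96 and 3.46 CPM in knockout libraries and 2.57, 1.98 and 2.98 CPM in wild-type libraries, with a log2 fold change of 0.51 ± 0.23 (SE; interval −0.0037 to 1.02; adjusted *p*=0.373). *Npr3* (NM_001286395; chromosome 15, 11839896 to 11907837) stood at 3.60, 2.45 and 3.04 CPM in knockout libraries and 2.83, 2.08 and 2.37 CPM in wild-type libraries, with a log2 fold change of 0.32 ± 0.22 (SE; interval −0.18 to 0.82; adjusted *p*=0.548). In both genes the groups overlapped by the lowest knockout library 7-3 and the highest wild-type library. Both are known from endothelial and stromal cells, and markers of those cells stood at higher sums in knockout livers. The 13 sinusoidal endothelial markers summed to 132 to 137 CPM in knockout and 102 to 112 CPM in wild-type livers, with 13 of 13 log2 fold changes above 0, and the 14 markers of stellate cells and portal fibroblasts summed to 112 to 115 CPM in knockout and 73.6 to 92.3 CPM in wild-type livers, with 9 above 0. No marker of either list was called by edgeR (4 endothelial and 6 stellate genes were higher and 0 and 1 lower with *p* under 0.05 before adjustment, against 6.7% of all tested genes higher and 6.76% lower, and DESeq2 called 1 and 3 higher and 0 and 1 lower, against 1.48% higher and 1.78% lower), and their part in the receptor values was not tested. The 11 Kupffer cell markers summed to 77.2 to 93.0 CPM in knockout and 91.5 to 113 CPM in wild-type livers, with 10 log2 fold changes below 0. Cholangiocyte markers summed to 33.2 to 39.1 CPM in knockout and 34.9 to 58.0 CPM in wild-type livers, with 5 of 6 below 0. Of these 2 lists 0 genes were called, and 2 and 1 were lower with *p* under 0.05 before adjustment, against 6.76% of all tested genes. Hepatocyte markers summed to 51509 to 68754 CPM in knockout and 60709 to 67143 CPM in wild-type livers, with 5 of 7 below 0. Of these 7, edgeR called 0, and 1 was lower with *p* under 0.05 before adjustment, against 6.76% of all tested genes. DESeq2 called 1 lower, against 1.78%.

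A ratio of paralogues within a library does not depend on how libraries are scaled, and a ratio of 1 marks equal counts, not equal levels per length. *Npr2* had fewer counts than *Npr1* in all 3 knockout livers, at 0.519, 0.533 and 0.721 counts per *Npr1* count, against 4.78, 5.89 and 2.63 in wild-type livers. Relative to *Npr3* it was at 0.616, 0.645 and 0.821 in knockout and 4.35, 5.61 and 3.31 in wild-type livers. Both ratios lay below 1 in every knockout liver and above 1 in every wild-type liver. *Npr2* and *Slc13a3* were picked for their fall, so lower ratios over their relatives follow from that choice and are described only. *Npr1* per *Npr3* count, a ratio without a picked gene, was 1.19, 1.21 and 1.14 in knockout livers. It was 0.910, 0.954 and 1.26 in wild-type livers, with overlapping groups. *Slc13a3* was at 0.047, 0 and 0 counts per *Slc13a5* count in knockout livers and 8.84, 2.67 and 4.92 in wild-type livers. Relative to *Slc13a2* it was at 0.087, 0 and 0 in knockout and 28.3, 18.0 and 14.6 in wild-type livers. The denominators were small, at 28 to 86 counts in knockout and 32 to 162 in wild-type libraries for *Slc13a5*, and 28 to 54 in knockout and 10 to 31 in wild-type libraries for *Slc13a2*.

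**Figure D2:**
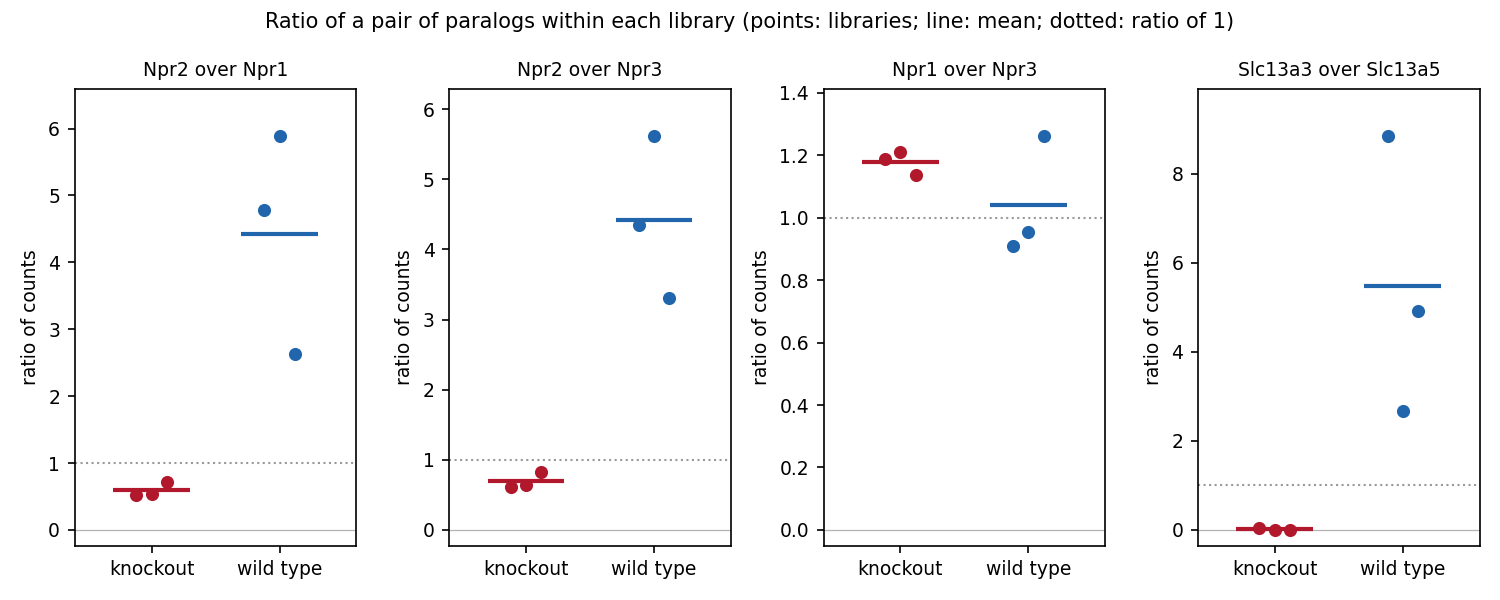
Ratio of the counts of a pair of related genes in each library (vertical axis) for knockout (red, left) and wild-type (blue, right) livers. Points are libraries, horizontal lines are means of 3 and the dotted line marks a ratio of 1. *Npr2*, which was picked for its fall, had fewer counts than *Npr1* and *Npr3* in every knockout liver (0.519 to 0.821 per count). It had more in every wild-type liver (2.63 to 5.89).

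Levels of different genes were compared only per length, as CPM per kilobase of the canonical GENCODE transcript. In knockout livers the order was *Npr3* (1.03 ± 0.20, SD, n=3), *Npr1* (0.59 ± 0.11), *Npr2* (0.47 ± 0.11), *Lhpp* (0.25 ± 0.24), *Slc13a2* (0.21 ± 0.05), *Slc13a5* (0.18 ± 0.11) and *Slc13a3* (0.0043 ± 0.0075). In wild-type livers it was *Lhpp* (9.49 ± 1.02), *Npr2* (2.38 ± 0.54), *Slc13a3* (1.47 ± 0.33), *Npr3* (0.82 ± 0.13), *Npr1* (0.42 ± 0.08), *Slc13a5* (0.38 ± 0.22) and *Slc13a2* (0.12 ± 0.06). The 3 genes picked for their fall held the top 3 places in wild-type livers. A choice by fall favours high wild-type levels, so this order is a description only. Next to each other in the order, *Npr1* and *Npr2*, *Npr2* and *Lhpp*, and *Lhpp*, *Slc13a2* and *Slc13a5* overlapped in knockout livers, and *Npr2* and *Slc13a3*, *Npr1* and *Slc13a5*, and *Slc13a5* and *Slc13a2* overlapped in wild-type livers.

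No stretch of 50 bases was shared between the transcripts of the 7 genes. *Slc13a3* and *Npr3* shared none with any other gene, and the remaining genes shared 4.51% (*Lhpp*) to 29.2% (*Slc13a2*) of such stretches with others. All of those of *Slc13a2* lie in its antisense gene *Slc13a2os*, which stood at 0.84 to 1.21 CPM in knockout and 0.88 to 1.70 CPM in wild-type livers, with more counts than *Slc13a2* in each library. *Npr2* overlaps *Spag8* by 108 bases and *Slc13a5* overlaps *1700051A21Rik* by 452 bases. Of its 4399 stretches *Npr2* shared 524 (11.9%), 276 with *Gm12473*, 111 with *Gm70167*, 84 with *Gm56257* and 53 with *Spag8*. *Slc13a5* shared 165 with *1700051A21Rik* and 141 with *Gm73823*. The kit keeps strand, but whether the counting used it is not stated, so that reads of such partners cannot be told apart.

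The fall of *Lhpp* was shared with a neighbour, *Oat*, which encodes ornithine aminotransferase, a mitochondrial enzyme of pericentral hepatocytes. The genes lie 34.2 kb apart on chromosome 7 (*Oat*, 132557475 to 132576398, minus strand). *Oat* stood at 3.72, 6.31 and 3.60 CPM in knockout libraries and 127, 160 and 162 CPM in wild-type libraries, with a log2 fold change of −5.04 ± 0.27 (SE), at an adjusted *p* of 2.75e-05. The wild-type level was 33.6-fold that of the knockout (counting interval 31.7 to 35.7), close to the 40.0-fold of *Lhpp*, and knockout library 7-3 was the highest of its group in both genes. There were 0.063, 0.161 and 0.055 *Lhpp* counts per *Oat* count in knockout livers and 0.137, 0.109 and 0.129 in wild-type livers, so that the ratio overlapped between groups. Against *Hdhd2*, a HAD phosphatase elsewhere in the genome, *Lhpp* was at 0.0124, 0.0534 and 0.0111 in knockout and 0.918, 1.21 and 1.16 in wild-type livers.

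No other tested gene near *Lhpp* was called. *Nkx1-2*, a homeobox gene between *Oat* and *Lhpp*, was below the filter with 22 counts in knockout and 37 in wild-type libraries. On the other side *Fam53b*, at 5.66 kb, stood at 3.02, 1.94 and 2.45 CPM in knockout and 1.93, 1.59 and 3.50 CPM in wild-type livers (log2 fold change 0.08, SE 0.32, adjusted *p*=0.939). *Oat* was the only 1 of 4 tested genes within 200 kb of *Lhpp* that was called, where 0.377% of all tested genes were called lower. Among the 57 called genes with a position in the annotation, 4 pairs lay within 100 kb of each other, a window set after the data were seen. *Oat* and *Lhpp* made 1 of these pairs. *Lhpp* was picked for its fall, so its place among the called genes follows from that choice. The other pairs were *Ang* with *Rnase4* and *Ces2c* with *Ces2d-ps*, both lower, and *Hamp2* with *Hamp*, both higher. *Ang* and *Rnase4* lie 0 kb apart. Counts came from unique and multiple alignments, and whether the members of these pairs share reads was not tested. How often genes lie this close among all tested genes was not computed.

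Beside *Slc13a3*, *Ocstamp*, a membrane protein known from osteoclasts, at 4.90 kb, stood at 0.12, 0.05 and 0.13 CPM in knockout and 0.36, 0.37 and 0.38 CPM in wild-type livers, on 25 counts in knockout and 81 in wild-type libraries. Its groups did not overlap, but its log2 fold change of −1.87 ± 0.48 (SE), at an adjusted *p* of 0.152, missed the threshold. *Trp53rka*, at 16.9 kb on the other side, encodes a protein kinase and had a log2 fold change of 0.01 ± 0.26 (SE), at an adjusted *p* of 0.995. None of 7 tested genes within 200 kb of *Slc13a3* was called, near the 0.377% lower and 0.071% higher of all tested genes. In 2 of the 7 all knockout values lay below all wild-type values, against 9.08% of all tested genes, and in 0 above. At *Npr2*, *Spag8* was below the filter with 11 counts in knockout and 18 in wild-type libraries, *Hint2*, a mitochondrial nucleotide hydrolase at 2.79 kb, had a log2 fold change of −0.27 ± 0.21 (SE), at an adjusted *p* of 0.590, and *Rgp1*, at 41.5 kb on the other side, of −0.30 (SE 0.17, adjusted *p*=0.477). None of 12 tested genes within 200 kb of *Npr2* was called, again near the shares of all tested genes. In 3 of the 12 all knockout values lay below all wild-type values, against 9.08% of all tested genes, and in 0 above. The median of the 12 log2 fold changes was −0.38. The lowest was *Rmrp*, a small non-coding RNA, at −2.99 (SE 0.55, adjusted *p*=0.0618).

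**Figure D3:**
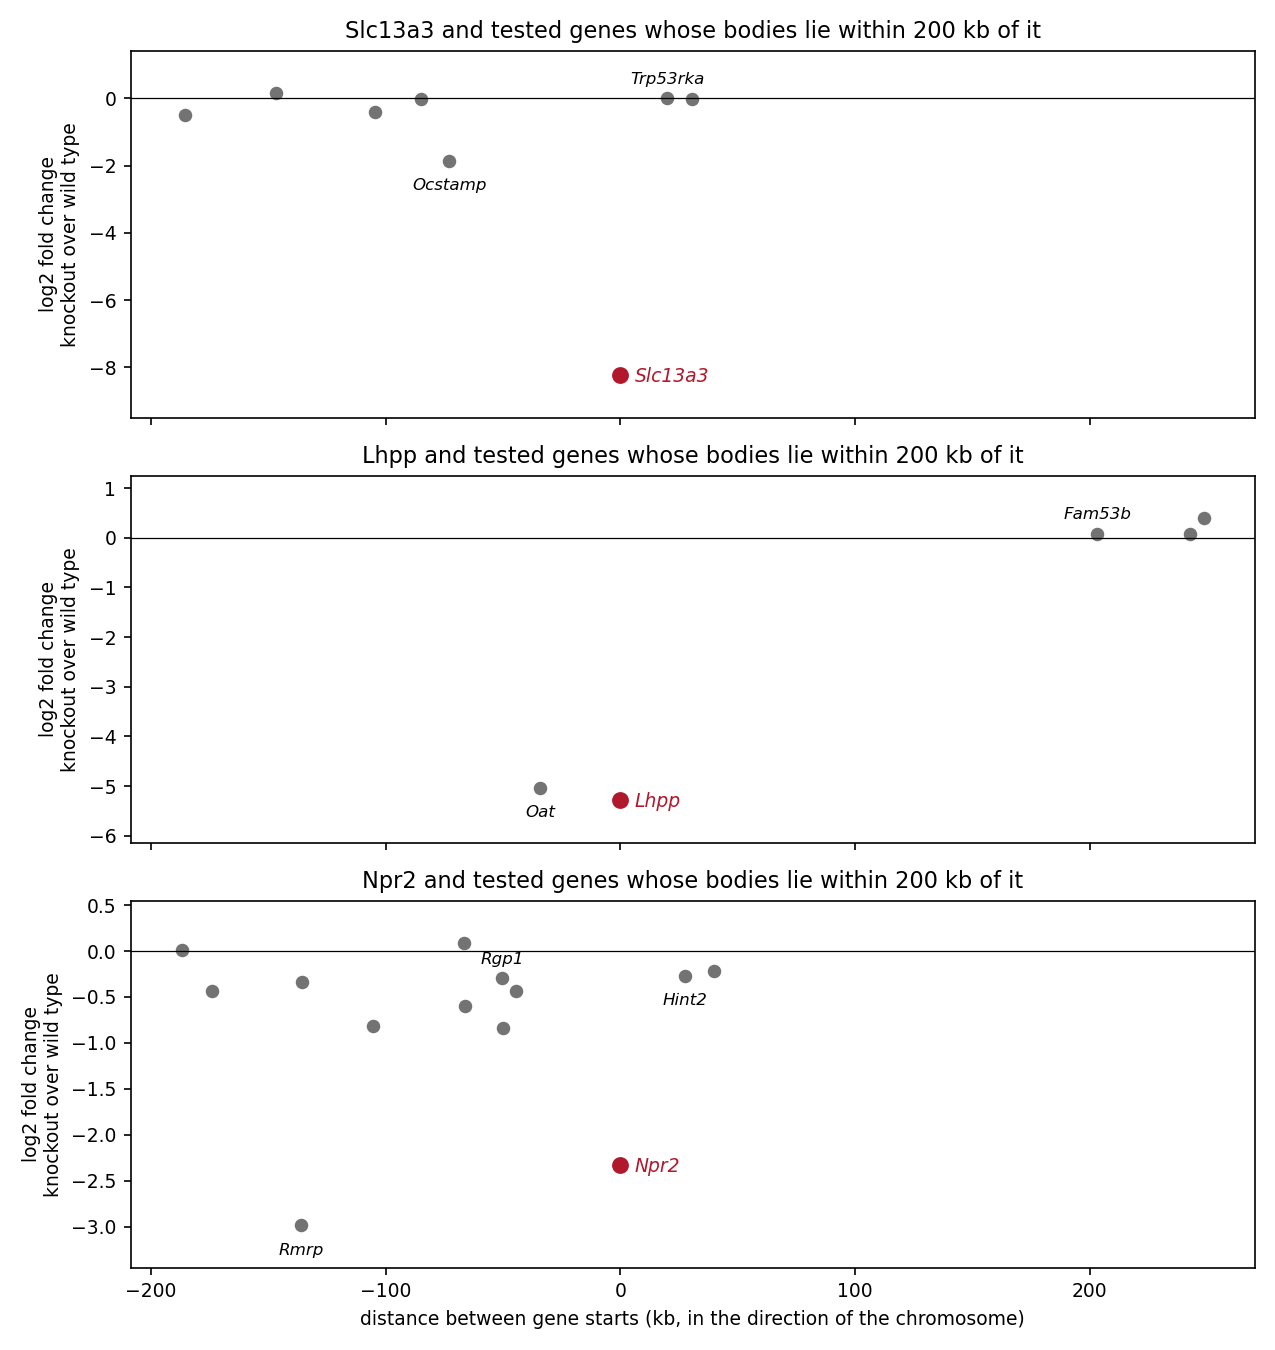
Log2 fold change, knockout over wild type (vertical axis, each panel with its own scale), of *Slc13a3*, *Lhpp* and *Npr2* (red) and of tested genes that lie within 200 kb of them (grey), against the distance between gene starts in kb. *Oat* lies beside *Lhpp* at −5.04 and −5.29, the tested neighbours of *Slc13a3* lie at −1.87 (*Ocstamp*) and 0.01 (*Trp53rka*), and near *Npr2* *Hint2* lies at −0.27 and *Rmrp* at −2.99.

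The natriuretic peptide pathway outside *Npr2* gave few genes to test. In knockout as in wild-type livers the ligand genes *Nppa*, *Nppb* and *Nppc*, their relative *Ostn* and the processing protease *Corin* were below the filter, with 0 to 4 counts in knockout and 0 to 7 in wild-type libraries each. Of the 5 tested genes of the list outside *Npr2*, 0 were called in either direction, a share near the 0.377% lower and 0.071% higher of all tested genes (0 and 0 with *p* under 0.05 before adjustment, 0 and 0 by DESeq2), with a median log2 fold change of 0.20 against −0.017 over all tested genes. These include *Furin*, a processing protease (log2 fold change 0.02, SE 0.14, adjusted *p*=0.961), and the peptide-degrading proteases *Mme* (0.20, SE 0.32, adjusted *p*=0.828) and *Ide* (0.09, SE 0.14, adjusted *p*=0.817).

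Cyclic GMP is also made by soluble cyclases and by GUCY2C, the receptor for guanylin, and is broken down by phosphodiesterases. Of 17 tested genes of this list outside *Npr2*, 0 were called in either direction (2 higher and 2 lower with *p* under 0.05 before adjustment, against 6.7% and 6.76% of all tested genes, 0 and 0 by DESeq2), and the median was 0.08. *Gucy2c* stood at 0.11, 0 and 0 CPM in knockout and 0.32, 1.04 and 1.48 CPM in wild-type livers, and as for *Slc13a3* all knockout counts, 9 here, came from library 7-2. The wild-type level was 26.3-fold that of the knockout (counting interval 13.6 to 58.2), with a log2 fold change of −4.65 ± 0.99 (SE), at an adjusted *p* of 0.0908, that missed the threshold. The others with *p* under 0.05 before adjustment were the cyclase subunits *Gucy1a2* (−0.64, SE 0.20, adjusted *p*=0.205) and *Gucy1b3* (0.89, SE 0.32, adjusted *p*=0.264) and the phosphodiesterase *Pde3b* (0.50, SE 0.15, adjusted *p*=0.199).

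Mitochondrial di- and tricarboxylate carriers were listed with the SLC13 family. This list also holds carriers of glutamate and aspartate and the succinate receptor *Sucnr1*, which is not a carrier. Of 10 tested genes outside *Slc13a3*, 2 were lower with *p* under 0.05 before adjustment, against 6.76% of all tested genes, and 2 higher, against 6.7%. DESeq2 called 2 lower, against 1.78%, and 1 higher, against 1.48%. The median log2 fold change of the 10 was −0.04. After adjustment edgeR called 1 lower, against 0.377% of all tested genes, and 0 higher, against 0.071%. The gene called was *Slc25a21*, the carrier of 2-oxoadipate and α-ketoglutarate (NM_001167976), at 3.22, 3.61 and 2.93 CPM in knockout and 10.01, 8.35 and 7.66 CPM in wild-type livers. Its groups were well apart, and its log2 fold change was −1.41 ± 0.17 (SE; adjusted *p*=0.00857). The glutamate carrier *Slc25a22* (−0.74, SE 0.18, adjusted *p*=0.139), the succinate receptor *Sucnr1* (1.02, SE 0.26, adjusted *p*=0.150) and the aspartate-glutamate carrier *Slc25a13* (0.51, SE 0.15, adjusted *p*=0.203) had groups that did not overlap but missed the threshold. In 2 of the 10 all knockout values lay below all wild-type values, against 9.08% of all tested genes, and in 2 above, against 10.2%. Knockout library 7-2 stood apart for *Sucnr1*. This gene was at 14.2, 7.67 and 6.85 CPM in knockout and 5.07, 4.65 and 4.42 CPM in wild-type livers.

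Enzymes of other SLC13A3 substrates, *N*-acetylaspartate and glutarate, formed another list. Of 11 tested genes 0 were called, again near the shares of all tested genes (2 higher, against 6.7% of all tested genes, and 0 lower with *p* under 0.05 before adjustment, 0 and 0 by DESeq2), and 9 of 11 log2 fold changes were above 0 with a median of 0.21. Among those with the smallest *p* were *Dhtkd1*, of the 2-oxoadipate dehydrogenase (0.52, SE 0.18, adjusted *p*=0.265), *Sugct*, which joins coenzyme A to glutarate (0.54, SE 0.20, adjusted *p*=0.287), and *Aspa*, which splits *N*-acetylaspartate (0.35, SE 0.21, adjusted *p*=0.496).

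The list around *Lhpp* holds histidine phosphatases, the nucleoside diphosphate kinases (*Nme*) that pass phosphate through a histidine, pyrophosphatases and HAD phosphatases. Of 18 tested genes outside *Lhpp*, 0 were called (0 higher and 4 lower with *p* under 0.05 before adjustment, against 6.76% of all tested genes lower, and 0 higher and 2 lower by DESeq2, against 1.78% lower), 13 of 18 lay below 0 and the median was −0.24. In 6 of the 18 all knockout values lay below all wild-type values, against 9.08% of all tested genes, and in 0 above. The 4 with the smallest *p* were *Nme6* (−0.88, SE 0.19, adjusted *p*=0.0908), *Nme1* (−0.54, SE 0.16, adjusted *p*=0.187), the pyrophosphatase *Ppa1* (−0.59, SE 0.18, adjusted *p*=0.203) and the phosphoglycolate phosphatase *Pgp* (−0.63, SE 0.21, adjusted *p*=0.250). The other histidine phosphatases *Phpt1* (−0.23, SE 0.20, adjusted *p*=0.645) and *Pgam5* (0.12, SE 0.17, adjusted *p*=0.792) had overlapping groups.

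**Figure D4:**
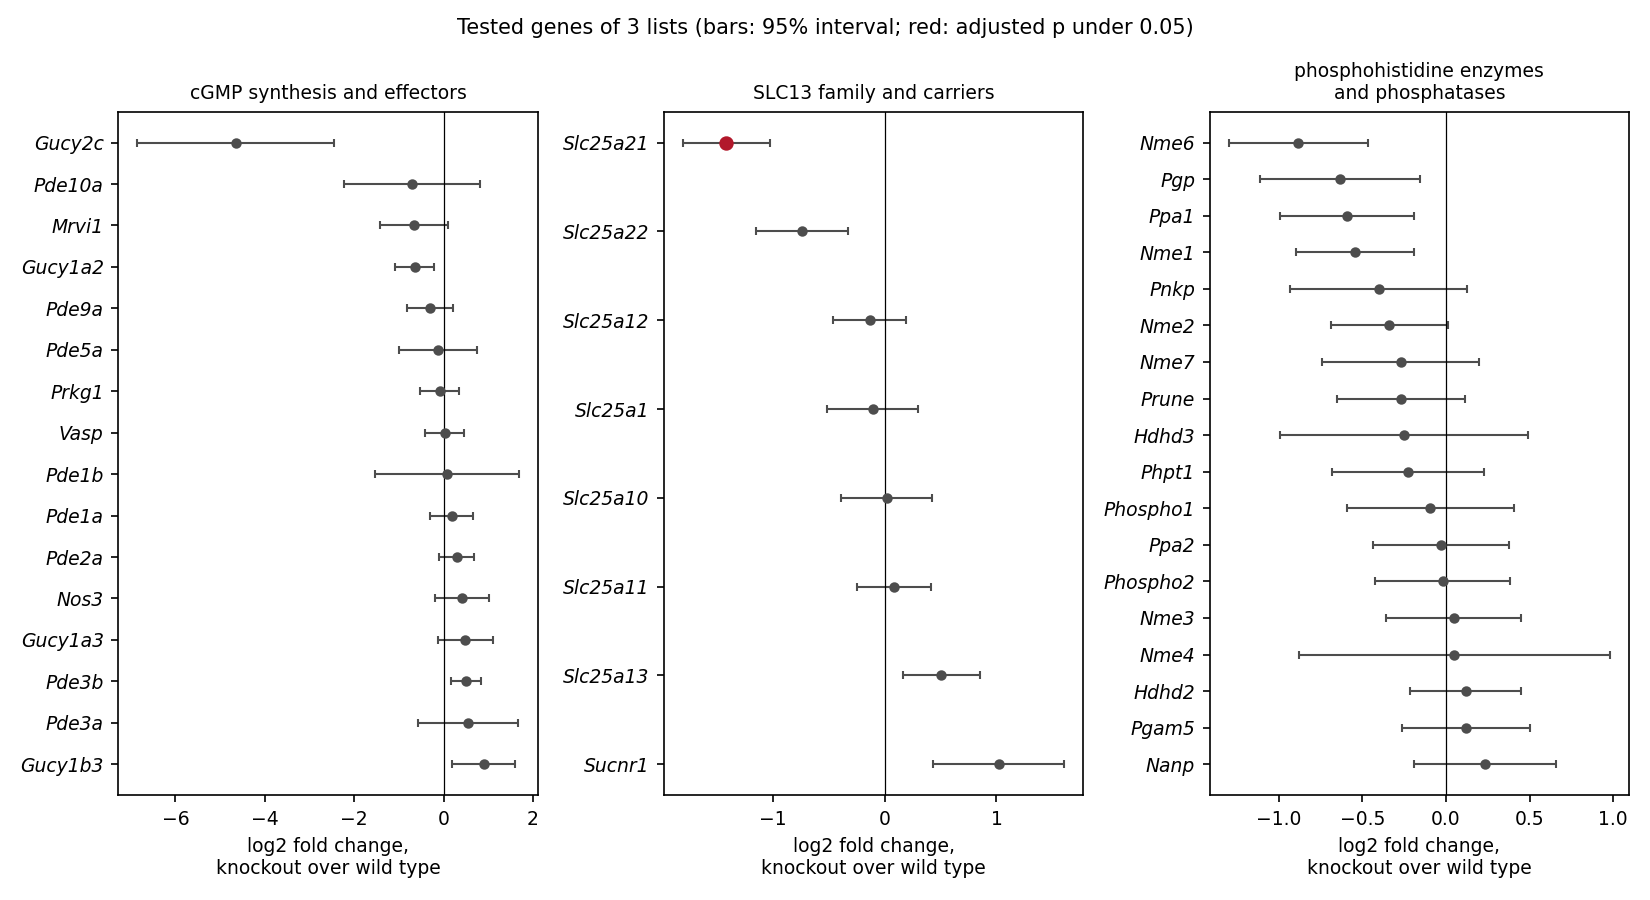
Log2 fold change, knockout over wild type (horizontal axis, each panel with its own scale), of the tested genes of 3 lists other than the 7 genes themselves. Points are fitted values, bars are 95% intervals, and red marks the only gene of the 3 lists with an adjusted *p* under 0.05, *Slc25a21* at −1.41.

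**Figure D5:**
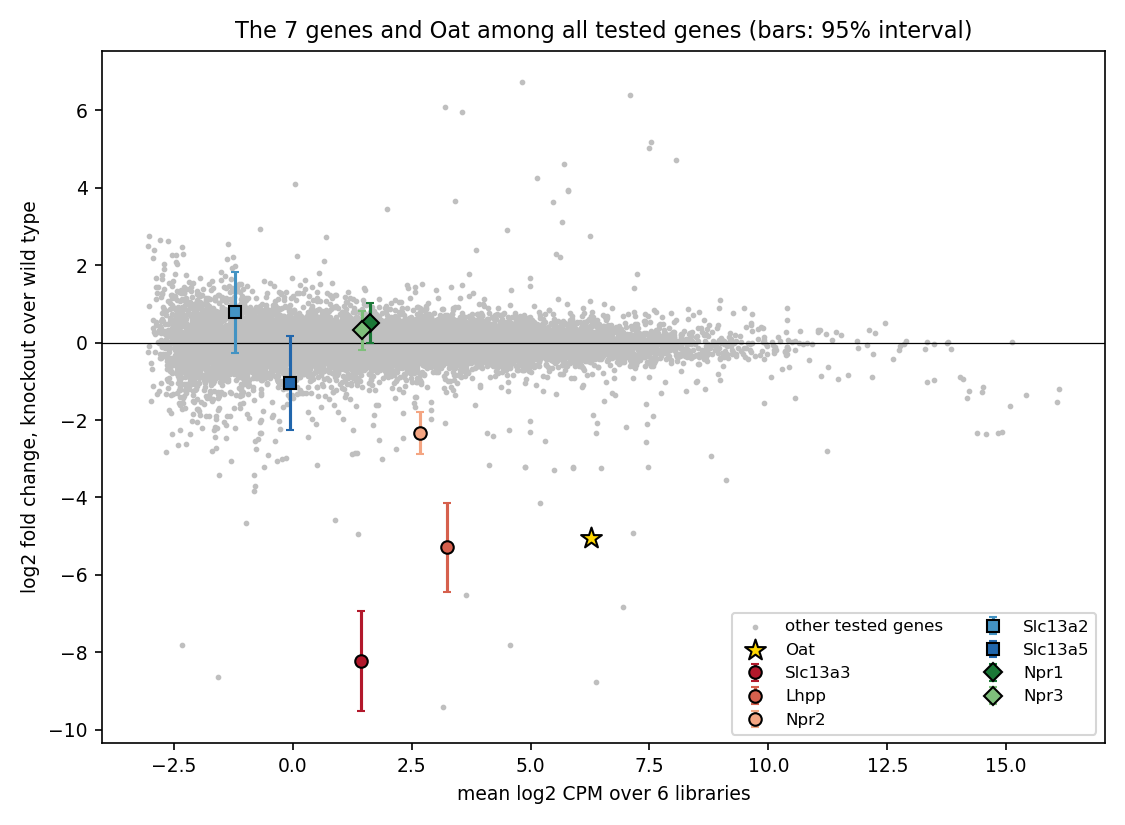
Log2 fold change, knockout over wild type (vertical axis), against the mean level of the gene in the 6 libraries (log2 CPM, horizontal axis), with the 14076 tested genes in grey, the 7 genes as coloured markers with 95% intervals and *Oat* as a star. *Slc13a3* (−8.24) and *Lhpp* (−5.29) lie far below the bulk of genes of like level and *Npr2* (−2.33) less so, while *Slc13a2*, *Slc13a5*, *Npr1* and *Npr3* have intervals that reach 0.

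Likeness of pattern was measured by Pearson's *r* of log2 CPM over the 6 libraries, as a description of 9479 genes with a mean log2 CPM above 1. Because both groups enter it, genes of small and large falls can be equally alike. The genes most like *Slc13a3* were *Crip2*, a LIM-domain protein (*r*=0.997, log2 fold change −0.86), *Ttll3*, a tubulin glycylase (0.993, −0.41), and *Serpina7*, thyroxine-binding globulin (0.991, −6.52). Those most like *Lhpp* were *Dynlt1a*, a dynein light chain with near-identical copies whose counts are uncertain (0.997, −0.96), *Ifi27l2b*, an interferon-inducible gene (0.993, −1.53), and *Gstm2*, a glutathione transferase (0.991, −2.03). Those most like *Npr2* were *Adrm1*, a ubiquitin receptor of the proteasome (0.998, −0.39), *Ints10*, a subunit of the Integrator complex (0.997, −0.35), and *Phf11c* (0.996, −0.76). An *r* above 0.9 was reached by 200 genes for *Slc13a3*, 189 for *Lhpp* and 136 for *Npr2*. Among themselves *Slc13a3* and *Lhpp* had an *r* of 0.946, *Slc13a3* and *Npr2* of 0.959, and *Lhpp* and *Npr2* of 0.896. *Slc13a3*, *Lhpp* and *Npr2* were all picked for their fall, so a high *r* among them follows from that choice. Whether they vary together within a group was not tested.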

How the data were processed

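Liver RNA of 3 *Alb-Cre;Tcf7l2 f/f* and 3 wild-type mice was sequenced with a directional kit. The authors deposited raw counts per gene, made with Bedtools coverage from unique and multiple alignments, before any quantile normalisation. The submitters' processing notes name TopHat and mm10; the version of TopHat and the annotation behind the counts are not stated there or in the methods. The libraries held 60619938 to 133384586 counts. Nothing says how the label numbers were given, and each library was taken as 1 mouse. No pair of libraries was a copy (smallest chi-square per degree of freedom 162).

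The groups were compared, knockout over wild type, in R 4.3.3 with the quasi-likelihood test of edgeR 4.0.16, TMM factors and filterByExpr (minimum count 10, minimum total 15), over all 14076 genes kept of 23282, with Benjamini-Hochberg adjusted *p* called under 0.05. The biological coefficient of variation was 23.9%. The code was tested on simulated data. The 7 genes and the gene lists were chosen with earlier results of these data known. The rule for named genes takes the 7, *Tcf7l2*, each called gene and the up to 4 genes of smallest *p* of each list (1 of which is not reported here), the nearest neighbours and, for each of *Slc13a3*, *Lhpp* and *Npr2*, the 3 genes of most similar pattern; *Oat* is a second-nearest neighbour, and *Rmrp*, *Hdhd2*, the called pairs, *Slc13a1*, *Slc13a4*, *Phpt1* and *Pgam5* were chosen after their values were seen. Coordinates and promoters are RefSeq's (GRCm38.p6), in which 22849 accessions were found. Transcript lengths are those of GENCODE vM39, taken after the files proved to hold none. Alternatives were upper-quartile and RLE factors, scaling by library size alone, DESeq2 1.42.0, scaling without *Mup* genes, quantile-normalised log2(count + 1) values and voom with limma 3.58.1, other filters, each library left out, and a replicate block.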

Additional observations from a re-analysis of the deposited data

How the results depend on the processing

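Under all alternatives that could be fitted (16 for *Slc13a3* and *Slc13a2*, which a filter at a mean log2 count of 5 removed, and 17 for the others) the 7 genes kept the sign of their log2 fold change. Leaving out each library in turn gave −11.67 to −7.67 for *Slc13a3*, the lowest without knockout library 7-2, when all knockout counts were 0 and the fitted value depends on the prior count, −6.41 to −4.91 for *Lhpp* and −2.51 to −2.17 for *Npr2*. The deviations of same-numbered libraries had correlations of 0.0079 (7-2) and −0.0069 (8-3), and those of the other pairs ran from −0.108 to 0.114. Whether the label numbers pair the libraries is not stated, and so few pairs cannot decide it. With a replicate block on the full number, *Npr2* was at −2.06 and was no longer called. It was picked for its fall, so neither a call nor the loss of it is a test of the gene. With that block no gene of the carrier list was called lower (0), *Slc25a21* being at −1.51 (adjusted *p*=0.0682). Scaling by library sizes alone moved the median of all genes to 0.61, and *Npr1* (1.13), *Npr3* (0.94) and *Slc13a2* (1.47) then passed the threshold, at 0.51, 0.33 and 0.85 relative to that median. Genes called higher became 4 for *N*-acetylaspartate and glutarate, 3 for the carrier list, 7 for cyclic GMP (1 lower), 2 for natriuretic peptides and 2 for phosphohistidine enzymes. DESeq2 called 1 gene of the carrier list higher and 2 lower, and 2 phosphohistidine genes lower. With no filter 1 cyclic GMP gene (*Gucy2c*, −4.64, adjusted *p*=0.0465) was called lower. Without wild-type library 7-2, 1 phosphohistidine gene was called lower (0 to 1 over the libraries left out).

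Over all genes, against 10 called higher and 53 lower, DESeq2 called 200 and 240, library sizes alone 2936 and 88, quantile-normalised limma 3 and 29, limma-voom 6 higher, no filter 23 higher, the block on the full number 34 lower, and the block on the leading number 6 and 33. Leaving out 1 library gave 3 to 18 higher and 21 to 69 lower, the most without wild-type library 7-2 and the fewest lower without wild-type library 8-1. DESeq2 gave *Tcf7l2* an adjusted *p* of 0.00274. The 95% interval of *Slc13a2*, on 128 counts in knockout and 65 in wild-type libraries, ran from −0.26 to 1.83, and differences within such intervals could not be told from 0 with TMM scaling.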
